A study of Rattus norvegicus with 6 samples.

Results

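The Fos and Jun genes were examined in RNA-seq data from the amygdala of adult male Sprague Dawley rats, with a control group injected intraperitoneally with saline and a group injected with 1 g/kg of ethanol. The 7 genes Fos, Fosb, Fosl1, Fosl2, Jun, Junb and Jund were chosen by their symbols out of the 38445 genes in the count files, and all 7 were found. Tissue was collected 1 h after the injection from wild-type animals. The paper's methods describe collection either right after a maze test begun at 1 h or without that test. Its main text does not say which applied to these rats. There were 6 rats and 3 libraries in each group, every library being a pool of 2 animals, so differences between single rats were not measured. The RNA came from dissected amygdala that held the central, medial and basolateral nuclei together, so fewer cells of a type and less RNA per cell cannot be told apart in these values.

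The Fos and Jun proteins are basic leucine zipper transcription factors that bind DNA as pairs, and the pair is known as activator protein 1 (AP-1). Jun proteins can pair with each other or with a Fos protein, whereas Fos proteins need a Jun partner. Fos, Fosb and Junb are among the immediate-early genes, which neurons switch on within minutes of synaptic activity without making new protein. For this reason Fos mRNA is widely used as a mark of recently active neurons. Jund is known as the constitutive member, and Fosl1 and Fosl2 encode the Fos-related antigens, which usually appear later than Fos.

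Immediate-early genes of this family are switched on through short promoter elements that bind CREB and serum response factor, so the promoters of the member with the highest RNA level (Jund), the member with the largest difference between groups among those tested (Junb) and the member with the lowest level (Fosl1) are shown. Each sequence is the 250 bases before the gene's start in RefSeq's GRCr8 build, read 5′ to 3′ on the gene's strand, and capitals mark the motifs found. The Jund sequence is chr16:18769772-18770021 on the minus strand, the Junb sequence is chr19:40080876-40081125 on the plus strand and the Fosl1 sequence is chr1:212183635-212183884 on the plus strand.
Jund: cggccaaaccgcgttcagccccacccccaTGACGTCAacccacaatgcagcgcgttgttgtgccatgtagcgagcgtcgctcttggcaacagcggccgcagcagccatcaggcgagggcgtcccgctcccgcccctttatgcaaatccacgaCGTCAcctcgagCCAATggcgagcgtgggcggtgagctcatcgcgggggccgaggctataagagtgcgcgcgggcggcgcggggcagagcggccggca
Junb: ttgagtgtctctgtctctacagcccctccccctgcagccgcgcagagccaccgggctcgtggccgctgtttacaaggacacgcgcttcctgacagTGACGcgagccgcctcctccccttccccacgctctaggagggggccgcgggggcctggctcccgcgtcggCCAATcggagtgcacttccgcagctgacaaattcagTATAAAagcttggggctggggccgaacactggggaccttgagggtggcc
Fosl1: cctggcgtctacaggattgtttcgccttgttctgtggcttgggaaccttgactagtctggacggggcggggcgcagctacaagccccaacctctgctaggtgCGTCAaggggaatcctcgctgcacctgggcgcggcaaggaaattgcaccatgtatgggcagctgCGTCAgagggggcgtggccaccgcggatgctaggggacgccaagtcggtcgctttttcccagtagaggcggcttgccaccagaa
The motifs searched on both strands were the cAMP response element or CRE (TGACGTCA), its core (TGACG, found on the other strand as CGTCA), the phorbol ester response element or TRE that AP-1 itself binds (TGACTCA or TGAGTCA), the TATA box (TATAAA, on the other strand TTTATA), the CCAAT box (CCAAT, on the other strand ATTGG) and the CArG box, which serum response factor binds. A whole CRE holds 2 overlapping cores. The Jund window held a whole CRE that began 221 bases before the start, a further core at 98 bases and a CCAAT box at 86 bases before it. The Junb window held 1 CRE core at 155 bases, a CCAAT box at 85 bases and a TATA box at 49 bases before the start. The Fosl1 window held CRE cores at 148 and 84 bases before the start. Of 33469 promoter windows of the same length, 1.59% held a whole CRE, 18.2% a CRE core, 12.9% the TATA letters, 34% the CCAAT letters, 4.05% a TRE and 1.5% a CArG box. None of the 5 members with a promoter entry (Fosb, Fosl1, Fosl2, Junb and Jund) held a TRE or a CArG box in this window. Fosb held only the TATA letters, at 180 bases, and Fosl2 held none of the motifs. Fos and Jun had no entry.

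The libraries held between 62576504 and 70755739 reads assigned to genes, and the floor of 3 counts was 0.0424 to 0.0479 CPM (counts scaled to a common library size), a floor that covers counting error only. Levels are CPM after TMM scaling of the libraries in edgeR, and levels of different genes are compared as CPM per kilobase (kb) of counted exons. The neuron markers Snap25, a synaptic membrane protein, and Camk2a, a kinase of excitatory neurons, were at 1734 ± 72.9 and 757 ± 72.6 CPM (SD, n = 3) in controls. These 2 genes mark neurons and do not set the amygdala apart. Npy, of the same marker list, was at 0 in every library, and the reason was not tested. Markers of the choroid plexus, a ventricular tissue outside the amygdala, differed widely between libraries. Their summed level over 12 genes was 544, 1179 and 924 CPM in control replicates 1, 2 and 3, and 15.01, 16.3 and 506 CPM in ethanol replicates 1, 2 and 3. Transthyretin (Ttr) led this list and was at 4.34 CPM or more in every library, whereas Otx2 was at 0 in 5 of 6 libraries. These values are set beside the results they move with.

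Jund was the most abundant member, with 64.0 ± 6.32 CPM per kb in controls against 69.1 ± 4.48 CPM per kb after ethanol (both SD, n = 3 libraries). It was followed in mean level by Jun, Junb, Fos, Fosl2, Fosb and Fosl1. Jund exceeded Jun 2.23-fold on average over the 6 libraries, and its lowest library (60.2 CPM per kb) was above the highest Jun library (37.6 CPM per kb). Jun and Junb overlapped, since Jun ranged from 24.3 to 37.6 CPM per kb and Junb from 19.96 to 31.5 CPM per kb, and Junb exceeded Jun in ethanol replicate 1. Junb was 2.54-fold above Fos on average, and these genes did not overlap. Fos (7.77 to 12.03 CPM per kb) and Fosl2 (4.80 to 9.49 CPM per kb) overlapped, with Fosl2 above Fos in control replicate 2. Fosl2 and Fosb (3.69 to 5.88 CPM per kb) overlapped as well, with Fosb above Fosl2 in ethanol replicate 1. Fosl1 was 49.0-fold below Fosb on average.

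**Figure D1:**
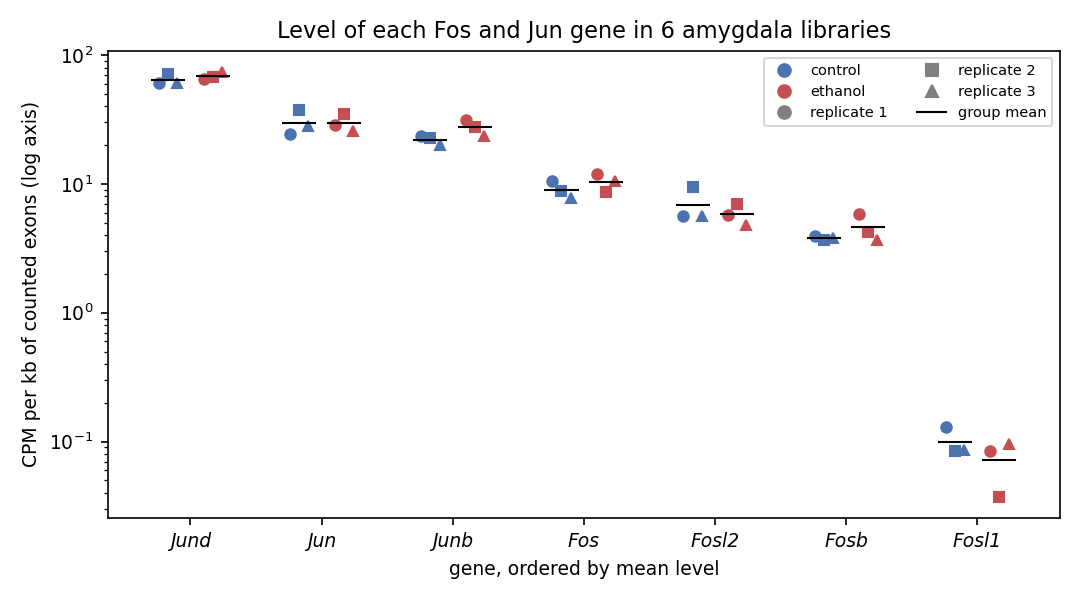
Level of each Fos and Jun gene in CPM per kb of counted exons on a log axis, with 1 point per library (blue control, red ethanol, shape for the replicate number) and a line at the mean of the 3 libraries of a group. Jund lies at 60.2 to 74.0 CPM per kb, the other Jun genes at 19.96 to 37.6, Fos, Fosl2 and Fosb at 3.69 to 12.03, and Fosl1 below 0.129.

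The level per kb depends on the exons that were counted, and these were unusual for Fosl2. The counting annotation of Rnor_6.0 gives Fosl2 (NCBI gene 25446, chromosome 6 from 25598936 to 25616995, minus strand) 976 counted bases in 29 blocks, of which 25 blocks are shorter than 30 bases. Fos (NCBI gene 314322, chromosome 6 from 109300433 to 109303299, plus strand), Fosb (NCBI gene 100360880, chromosome 1 from 80214691 to 80221417, minus strand) and Fosl1 (NCBI gene 25445, chromosome 1 from 220826560 to 220835066, plus strand) have 4 exon blocks each. Jun (NCBI gene 24516, chromosome 5 from 114011184 to 114014277), Junb (NCBI gene 24517, chromosome 19 from 26092972 to 26094756) and Jund (NCBI gene 24518, chromosome 16 from 20485028 to 20486707) lie on the minus strand in 1 exon block each. No exon of a member shared bases with another gene on its own strand. Fosb exons overlapped LOC103691049 on the other strand, and the authors' counting used strand.

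The comparison of ethanol with control asked whether RNA of the AP-1 genes differed 1 h after the injection. Each log2 fold change below is ethanol minus control from 1 edgeR quasi-likelihood fit of the 18141 genes tested, and adjusted p-values follow Benjamini and Hochberg over those genes. No member had an adjusted p under 0.2, the threshold the study uses. Fosl1 did not pass the filter on low counts, so 6 of the 7 members were tested. The background of this quasi-likelihood test was 0% of all genes called at an adjusted p below 0.2. The paper reports genes that passed the same threshold in its own test of these libraries. The share of genes called depended on the test, as the counts from other tests below show. At an unadjusted p below 0.05 there was 1 of the 6 members, Junb, which was higher, against 1.57% of all genes tested that were higher at that p and 4.15% in either direction. At an adjusted p below 0.2, 0 members were called by DESeq2, which called 75 of the 18141 genes (0.413%), by edgeR's likelihood ratio test, which called 77 (0.424%), and by limma-voom, which called 0. The groups overlapped for each of the 6 members, against 8.85% of all genes whose groups did not overlap (3.65% higher and 5.19% lower after ethanol). Of the 6 members, 4 were higher and 2 lower after ethanol, with a median log2 fold change of 0.16 beside 0.006 over all genes tested. With the choroid plexus markers as a covariate, 3 members were higher and 3 lower, since Fosb changed sign, and the median was -0.03. The mean log2 CPM of these markers was 3.54, 4.65 and 3.95 in control replicates 1, 2 and 3. In ethanol replicates 1, 2 and 3 it was -0.05, 0.11 and 3.50, so the covariate and the treatment cannot be fully told apart.

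**Figure D2:**
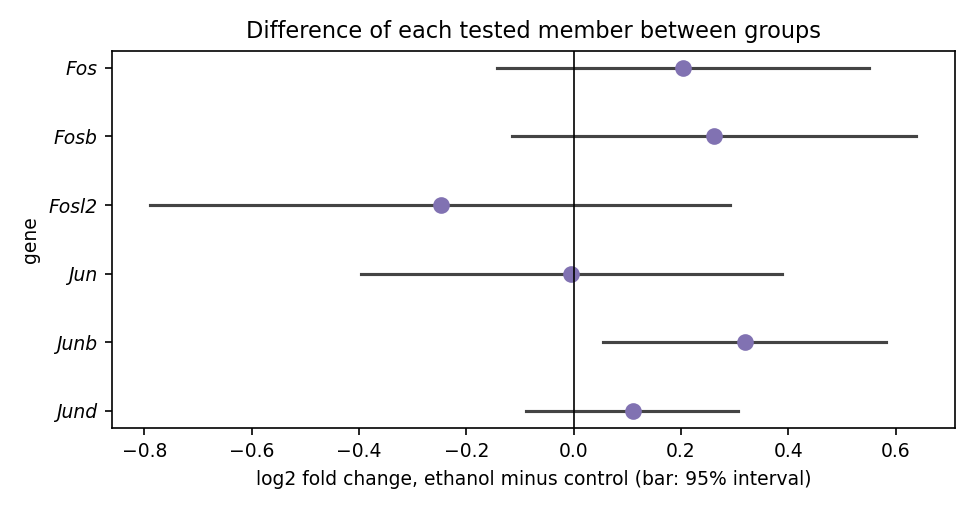
Log2 fold change (ethanol minus control) of the 6 tested members as points, with the 95% interval from edgeR's quasi-likelihood fit as bars. Only the interval of Junb (0.06 to 0.58) lies to one side of 0, and the interval of Fosl2 is the widest at -0.79 to 0.29.

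Among the Jun genes, Junb encodes a Jun protein that can restrain Jun and that is induced together with Fos. Its level was 42.1, 40.3 and 35.6 CPM in control replicates 1, 2 and 3, and 56.2, 49.1 and 41.9 CPM in ethanol replicates 1, 2 and 3. Ethanol replicates 1 and 2 were above each control, while ethanol replicate 3 was just below control replicate 1, so the groups overlapped. The log2 fold change of Junb was 0.32 (standard error 0.11, 95% interval 0.06 to 0.58, adjusted p = 1.0 in edgeR), with an unadjusted p of 0.0238 from the same edgeR fit. A 2-sided exact permutation test on log2 CPM over 20 label assignments gave p = 0.2, where 0.1 is the smallest p that 3 libraries against 3 allow. Without control replicate 3 the unadjusted p from the edgeR fit was 0.0839, without ethanol replicate 1 it was 0.0873, without ethanol replicate 2 it was 0.0504 and without ethanol replicate 3 it was 0.00263. The ethanol libraries with the higher Junb levels, replicates 1 and 2, were also those with the low choroid plexus marker sums of 15.01 and 16.3 CPM. With the mean log2 CPM of those markers as a covariate, the log2 fold change of Junb was 0.05, with an unadjusted p of 0.718 in edgeR. The low marker sums occurred only after ethanol, so this covariate and the treatment cannot be fully told apart. Snap25 was at 1935, 2140 and 1590 CPM in ethanol replicates 1, 2 and 3 and at 1788, 1762 and 1651 CPM in control replicates 1, 2 and 3, and its part in the Junb values was not tested.

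Jun encodes c-Jun, a common partner of Fos proteins and a substrate of the Jun kinases. It was at 75.1, 116 and 86.6 CPM in control replicates 1, 2 and 3 and at 89.0, 108 and 80.1 CPM in ethanol replicates 1, 2 and 3. The highest library of each group was replicate 2, and the groups overlapped throughout. The log2 fold change was -0.005 (standard error 0.17, 95% interval -0.40 to 0.39, adjusted p = 1.0 in edgeR), an interval that reached from 0.759-fold to 1.31-fold. Without control replicate 2 the log2 fold change of Jun was 0.19, and without control replicate 1 it was -0.14, so single libraries set its sign.

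Jund was the steadiest of the tested members. It was at 101.2, 119.8 and 101.6 CPM in control replicates 1, 2 and 3 and at 109.5, 114.4 and 124.2 CPM in ethanol replicates 1, 2 and 3, and control replicate 2 was higher than all but 1 ethanol library. Its log2 fold change was 0.11 (standard error 0.09, 95% interval -0.09 to 0.31, adjusted p = 1.0 in edgeR). Without control replicate 2 the log2 fold change was 0.195 (edgeR's unadjusted p 0.0333, adjusted p 0.975). With the choroid plexus markers as a covariate it was 0.276 (edgeR's unadjusted p 0.0406, adjusted p 0.861). That covariate and the treatment cannot be fully told apart for Jund either. The highest Jund library was 1.23 times the lowest, against 1.55 times for Jun and 1.58 times for Junb.

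Among the Fos genes, Fos itself was at 16.7, 14.1 and 12.4 CPM in control replicates 1, 2 and 3 and at 19.1, 13.7 and 16.8 CPM in ethanol replicates 1, 2 and 3. Ethanol replicate 2 was below 2 of the 3 controls. The log2 fold change of 0.20 (standard error 0.15, 95% interval -0.14 to 0.55, adjusted p = 1.0 in edgeR) did not exceed the spread between libraries, and the upper bound of its interval was 1.46-fold. The Fos value was 0.09 on the log2 scale when ethanol replicate 1 was left out and was 0.32 when ethanol replicate 2 was.

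Fosb, whose shortened product deltaFosB is known to build up in the brain after repeated drug exposure, was at 12.9, 12.01 and 12.5 CPM in control replicates 1, 2 and 3. After ethanol it was at 19.1, 13.7 and 12.01 CPM in replicates 1, 2 and 3. The controls agreed closely, and the higher ethanol mean came mainly from replicate 1. The log2 fold change was 0.26 (standard error 0.16, 95% interval -0.11 to 0.64, adjusted p = 1.0 in edgeR). Without ethanol replicate 1 it was 0.05, without ethanol replicate 3 it was 0.40, and with the choroid plexus markers as a covariate it was -0.13. That covariate cannot be fully told apart from the treatment. Counts were summed over the exons of the gene, so the full-length and deltaFosB transcripts were not separated.

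Fosl2 encodes Fra-2, which has no strong activation domain of its own. It was at 5.48, 9.27 and 5.50 CPM in control replicates 1, 2 and 3 and at 5.63, 6.76 and 4.68 CPM in ethanol replicates 1, 2 and 3. Control replicate 2 stood above the other 5 libraries. The log2 fold change was -0.25 (standard error 0.23, 95% interval -0.79 to 0.29, adjusted p = 1.0 in edgeR), and without control replicate 2 it was 0.05. Fosl1, which encodes Fra-1, had 14, 10 and 9 counts in control replicates 1, 2 and 3 and 9, 4 and 11 counts in ethanol replicates 1, 2 and 3. These correspond to 0.166 ± 0.042 CPM in controls against 0.120 ± 0.051 CPM after ethanol (both SD, n = 3), above the floor of 3 counts in each library. Without the filter on low counts, the log2 fold change of Fosl1 was -0.45 (standard error 0.44, adjusted p = 0.983 in edgeR).

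**Figure D3:**
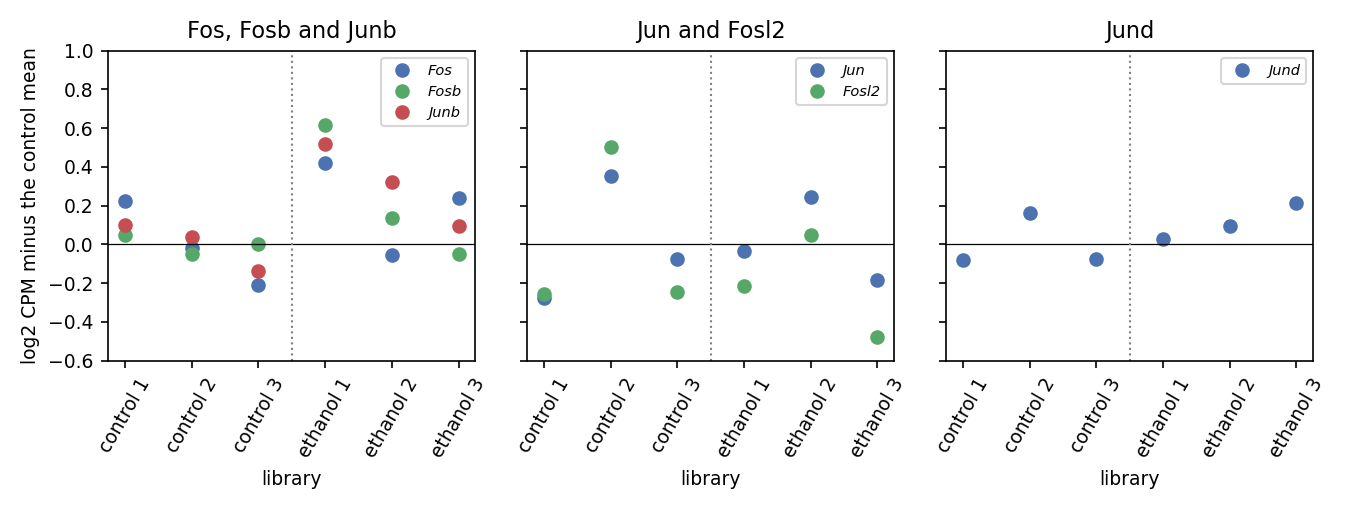
Log2 CPM of each tested member in each library minus the mean of the 3 control libraries, for Fos, Fosb and Junb (left), Jun and Fosl2 (middle) and Jund (right), with a dotted line between the groups. Fos, Fosb and Junb are highest in ethanol replicate 1 (0.42, 0.62 and 0.52), whereas Jun and Fosl2 are highest in control replicate 2 (0.35 and 0.50).

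Ethanol replicate 1 was the highest library for Fos, Fosb and Junb, control replicate 2 was the highest for Jun and Fosl2, and ethanol replicate 3 was the highest for Jund. As a description over 6 libraries, which also carry any difference between groups, the log2 CPM of Fosl2 and Jun correlated by a Pearson r of 0.89 and that of Fosb and Junb by 0.86. Fos correlated by 0.67 with Junb and by 0.61 with Fosb, but by -0.45 with Jun and by -0.40 with Fosl2. Jun and Junb, which encode partners of the same kind, correlated by 0.13.

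The genes whose pattern over the 6 libraries was most like that of a member were taken from 14174 genes with a symbol and a mean of at least 1 CPM. For Fos they were Rbm20, Stac2 and Fbxw2 (Pearson r of 0.981, 0.977 and 0.976), and for Fosb they were Hcrtr1, the orexin receptor 1, LOC100912202 and Rdh12 (0.974, 0.973 and 0.973). For Junb they were Dpp6, an auxiliary subunit of potassium channels, Zzz3 and Ppm1l (0.993, 0.990 and 0.988). For Jun they were Prrt1, Srgap3 and Prrt3 (0.998, 0.993 and 0.991), for Fosl2 they were Chrd, Gas6 and Cpne2 (1.0, 0.996 and 0.988), and for Jund they were Smim10l1, Tmem41a and Borcs6 (0.995, 0.989 and 0.988). The best match of Jun, Prrt1, was at 166, 212 and 182 CPM in control replicates 1, 2 and 3 and at 185, 204 and 175 CPM in ethanol replicates 1, 2 and 3, the same order of libraries as for Jun. These coefficients rest on 6 libraries whose depth and group the genes share, and they are given as a description.

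The spread between libraries of the same group, which are pools of different rats, is given beside the spread that counting alone would leave. The pooled SD of log2 CPM within groups was 0.36 for Fosl2, 0.27 for Jun, 0.25 for Fosb, 0.23 for Fos, 0.17 for Junb and 0.12 for Jund. Counting error alone would give 0.07 for Fosl2, 0.05 for Fosb and Fos, 0.03 for Junb and 0.02 for Jun and Jund. Over all genes tested the median within-group SD was 0.14, which 5 of the 6 members exceeded. Compared with genes of like abundance, within 0.5 on the log2 CPM scale, the spread of Jun exceeded that of 96.9% of 2096 genes, that of Fosl2 90.3% of 1409 genes and that of Fosb 89.1% of 1973 genes. For Fos it exceeded 88.6% of 2164 genes, for Junb 87.0% of 2642 genes and for Jund 70.7% of 1829 genes.

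**Figure D4:**
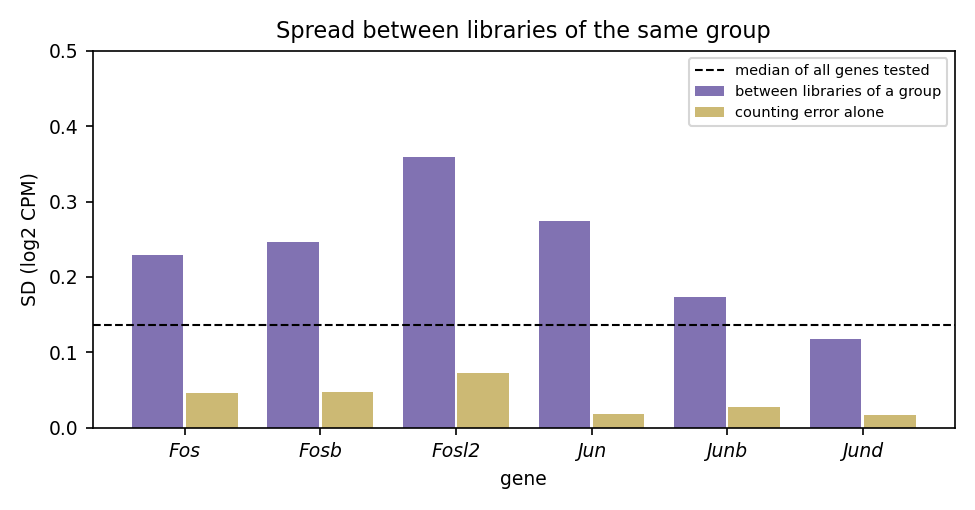
Pooled within-group SD of log2 CPM (purple bars) of the 6 tested members beside the SD that counting error alone gives (yellow bars), with a dashed line at the median of all genes tested (0.14). Fosl2 has the highest bar at 0.36 and Jund the lowest at 0.12, the only member below the dashed line.

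The balance between partners was compared within each library, where the scaling between libraries has no effect. The 4 Fos genes together made up 15.8, 14.4 and 13.8% of the summed CPM per kb of the family in control replicates 1, 2 and 3, and 15.9, 13.2 and 13.5% in ethanol replicates 1, 2 and 3. The groups overlapped, and the log2 ratio of the summed Fos genes to the summed Jun genes was -2.54 ± 0.12 (SD, n = 3) in controls and -2.60 ± 0.18 (SD, n = 3) after ethanol. Jund alone made up 47.2 ± 0.853% of the family in controls and 47.0 ± 4.35% after ethanol (SD, n = 3 each). Junb made up 16.3 ± 1.87% in controls and 18.6 ± 2.33% after ethanol, and Jun 21.9 ± 2.78% and 20.2 ± 2.65% (SD, n = 3 each). The log2 ratio of Junb to Jun was -0.04, -0.73 and -0.49 in control replicates 1, 2 and 3 and 0.13, -0.34 and -0.14 in ethanol replicates 1, 2 and 3, so the groups overlapped here as well.

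The members were set beside 29 other genes known to respond fast to neuronal activity or stress. Of these 29 genes, all tested, 9 were higher after ethanol at an unadjusted p below 0.05 in edgeR and 0 were lower, against 1.57% and 2.58% of all genes tested. None of them passed an adjusted p of 0.2, and their median log2 fold change was 0.15 beside 0.006 over all genes. The list was written with earlier results of these data known, so its count is a description. Dusp1, a phosphatase that switches off MAP kinases, was at 21.6, 19.8 and 18.6 CPM in control replicates 1, 2 and 3 and at 26.2, 28.7 and 25.2 CPM in ethanol replicates 1, 2 and 3. The paper lists Dusp1 among the genes increased in its own RNA-seq test and reports a rise by qPCR. Egr1, a zinc finger transcription factor induced alongside Fos, was at 56.4, 51.6 and 45.1 CPM in control replicates 1, 2 and 3 and at 69.6, 59.4 and 64.3 CPM in ethanol replicates 1, 2 and 3. The ethanol libraries of Dusp1 and Egr1, which have the smallest p of the list, lay above the controls. The groups overlapped for 20 of the 29 genes, Arc, Egr2, Egr3, Nr4a1 and Npas4 among them, and for each of the 6 tested Fos and Jun genes. They did not overlap for 9 of the 29, all higher after ethanol, against 3.65% of all genes tested that were higher without overlap. The log2 fold changes were 0.42 for Dusp1 (adjusted p = 0.818 in edgeR), 0.34 for Egr1, 0.41 for Btg2, an antiproliferative regulator, and 0.34 for Gadd45g, a stress sensor, with an adjusted p of 1.0 for the last 3 from the same edgeR test. Rheb, the list's most abundant gene per kb, had a log2 fold change of 0.03. With the choroid plexus markers as a covariate, 2 of the 29 genes were higher at that unadjusted p, and without ethanol replicate 2 the number was 4. Here too the covariate and the treatment cannot be fully told apart. The difference between the members' fold changes and those of this list was not tested.

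**Figure D5:**
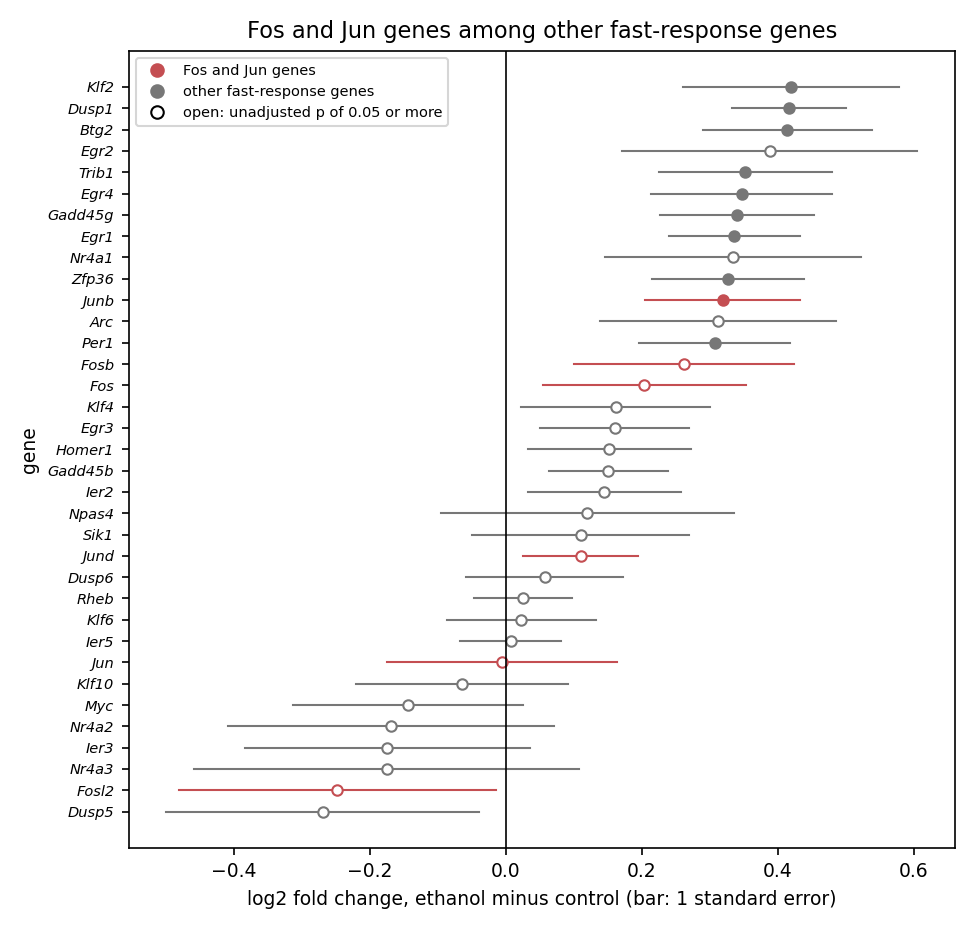
Log2 fold change (ethanol minus control, bars of 1 standard error) of the 6 tested Fos and Jun genes (red) and of 29 other fast-response genes (grey), ordered by size, with filled points at an unadjusted p below 0.05. Among the Fos and Jun genes the only filled point is Junb at 0.32, and 9 of the grey points, such as Dusp1 at 0.42, are filled to the right of 0.

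Genes that work with AP-1 were taken from 4 lists. Of 18 tested relatives of the basic leucine zipper class, 1 was higher and 0 were lower at an unadjusted p below 0.05 in edgeR. Over all genes tested these shares were 1.57% and 2.58%. The median log2 fold change of the relatives was 0.04. The higher gene was Nfe2l3, at 0.688, 0.563 and 0.647 CPM in control replicates 1, 2 and 3 and at 1.04, 0.700 and 1.31 CPM in ethanol replicates 1, 2 and 3 (log2 fold change 0.69, standard error 0.26, adjusted p = 1.0 in edgeR). Jdp2, which pairs with Jun and represses AP-1 sites, was at 23.6, 24.6 and 25.2 CPM in control replicates 1, 2 and 3 and at 27.6, 26.2 and 26.5 CPM in ethanol replicates 1, 2 and 3, a log2 fold change of 0.13 (standard error 0.06) without overlap of the groups. Maf and Mafk had log2 fold changes of -0.185 and 0.13. The most abundant relatives per kb were Atf4, the effector of the integrated stress response, and Nfe2l1, with log2 fold changes of 0.03 and 0.05.

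Among 14 tested regulators that act on the Fos and Jun promoters, 1 was higher and 0 were lower at that unadjusted p, with a median log2 fold change of 0.08. Over all genes tested the shares were 1.57% and 2.58%. The higher gene was Mef2d, a calcium-responsive factor of neurons, at 206.1, 208.1 and 199.7 CPM in control replicates 1, 2 and 3 and at 244, 234 and 212 CPM in ethanol replicates 1, 2 and 3 (log2 fold change 0.17, standard error 0.07, adjusted p = 1.0 in edgeR). Stat3 and Elk1, which act at the Fos promoter, had log2 fold changes of 0.12 and 0.11. Mef2c was at 366, 358 and 231 CPM in ethanol replicates 1, 2 and 3 against 246, 262 and 297 CPM in the controls, and its ethanol replicates 1 and 2 stood above the other 4 libraries. Crtc1, a CREB coactivator, had a log2 fold change of 0.05. Of 16 tested kinases and turnover factors of AP-1 proteins, 0 were higher or lower at that unadjusted p by edgeR's test, with a median of 0.03. Of that list, Rps6ka2 had a log2 fold change of 0.12 and Mapk9, a Jun kinase, one of 0.10. Mapk3, an ERK kinase and the most abundant gene of the list per kb, had a log2 fold change of 0.11.

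Of 20 tested genes known to carry AP-1 sites, 0 were higher and 1 was lower at that unadjusted p in edgeR, with a median log2 fold change of 0.003. Beside this, 1.57% of all genes tested were higher and 2.58% lower. The lower gene was Il1b, the interleukin 1 beta gene, at 0.245, 0.211 and 0.284 CPM in control replicates 1, 2 and 3 and at 0.140, 0.109 and 0.187 CPM in ethanol replicates 1, 2 and 3 (log2 fold change -0.745, standard error 0.31, adjusted p = 1.0). Mmp3, a matrix protease with a well-known AP-1 site, had a log2 fold change of -0.68 (standard error 0.34) at 0.442 ± 0.042 CPM in controls and 0.276 ± 0.119 CPM after ethanol (SD, n = 3 each). Ccnd1 (cyclin D1) and Lif had log2 fold changes of -0.19 and -0.345. Il1b, Mmp3 and Lif stayed below 1 CPM in every library, so their fold changes rest on few reads. Penk, the enkephalin precursor, and Gria2, an AMPA receptor subunit, were the most abundant per kb, with log2 fold changes of 0.185 and 0.02 and groups that overlapped.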

How the data were processed

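RNA from the amygdala of rats was sequenced in 6 libraries (3 control, 3 ethanol) as single-end reads of 100 nt. Per the submitters' processing notes and the file headers, the authors aligned quality-trimmed reads with STAR 2.7.0f and deposited raw counts per gene from featureCounts in Subread 1.6.3, run in reverse-stranded mode on the exons of each gene in Rnor_6.0. The header sets no option to count multi-mapping or ambiguous reads. Symbols came from a reference gene table (GRCr8), which matched 29322 of the 38445 genes.

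Genes were kept by filterByExpr (minimum 10 counts, 15 in total), scaled by TMM and compared with edgeR 4.0.16 in R 4.3.3 (quasi-likelihood F test, Benjamini-Hochberg adjustment over 18141 genes, threshold 0.2). The standard error is the absolute log2 fold change over the square root of F. Log2 CPM carries a prior count of 2. The test was checked on simulated data. Alternatives were DESeq2 1.42.0, limma-voom (limma 3.58.1), the likelihood ratio test, other scalings, no filter, a replicate block, a choroid plexus covariate and leaving out each library. Named genes were the members, the 4 genes with the smallest p and the 2 most abundant of each related list, leading markers and the 3 genes most like each member, of which 4 are not reported here. Markers of ependyma, astrocytes, oligodendrocytes, microglia and vessels were also listed. The members and lists were chosen with earlier results of these data known.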

Additional observations from a re-analysis of the deposited data

How the results depend on the processing

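No member had an adjusted p below 0.2 under any of the 14 alternatives, and of 84 refitted log2 fold changes of the 6 tested members 77 kept their direction. Jun, whose log2 fold change was -0.005, changed sign with limma-voom (0.01), without control replicate 2 (0.192), without ethanol replicate 1 (0.02) and without ethanol replicate 3 (0.09). Fosl2 changed sign without control replicate 2, and Fosb with the choroid plexus covariate (-0.13). Without 1 library each, the range was -0.39 to 0.052 for Fosl2 and -0.144 to 0.192 for Jun. Fos, Junb and Jund kept their direction, with 0.09 to 0.32, 0.05 to 0.42 and 0.06 to 0.28 over the alternatives. Over all genes, the number with an adjusted p below 0.2 was 0 with edgeR's quasi-likelihood test (753 at an unadjusted p below 0.05), 77 with the likelihood ratio test, 75 with DESeq2, 2 with the choroid plexus covariate and 0 to 83 without 1 library each, the highest without ethanol replicate 3 and then 4 without ethanol replicate 1. The cause was not tested. The counts at an unadjusted p were recomputed under each alternative after seeing the data. Members numbered 1 in each alternative that kept the 6 libraries and 0 to 2 without 1 library each (0 without control replicate 3, ethanol replicate 1 or ethanol replicate 2, and 2 without control replicate 2 or ethanol replicate 3), and with the choroid plexus covariate that member was Jund. Over all genes the share at that p was 3.56% to 5.6% in the alternatives with 6 libraries, 3.91% without control replicate 1, 8.87% without ethanol replicate 3, 3.75% without control replicate 2, 3.1% without control replicate 3, 3.57% without ethanol replicate 1 and 3.16% without ethanol replicate 2. Fast-response genes that were higher numbered 2 with the covariate and 4 to 10 without 1 library each, the lowest without ethanol replicate 2 and 6 without control replicate 1 or 3. The Fos to Jun log2 ratio, -0.06 between groups, moved by less than 1 SD, a margin wider than the value itself. Its sign changed without division by length (0.03), without control replicate 1 (0.006) and without ethanol replicate 2 (0.002).

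The replicate numbers of the labels do not mark shared rats. The same-numbered libraries correlated in their deviations by 0.0264, 0.388 and 0.211 over 14241 genes. The labels do not say whether they shared a preparation step, and this was not tested. Of the 6 samples, 3 correlated best with their own number (control 2, control 3 and ethanol 2), whereas control 1 correlated best with ethanol 3 (0.305). With the replicate block, 0 genes and 0 members had an adjusted p below 0.2, the log2 fold change of Jun was 0.008, 1 member was at an unadjusted p below 0.05 (Junb, log2 fold change 0.31, edgeR's unadjusted p 0.00191) and 11 fast-response genes were higher. Depth was lowest for Fosl1, with 4 to 14 counts per library. The edgeR p-values set the difference between groups against the spread between libraries of pooled rats.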

Other observations

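Sums of the other marker lists were set beside the members as values. The ependyma and cilia markers summed to 74.5 to 96.8 CPM in controls and 66.4 to 70.7 CPM after ethanol, led by Rarres2 and Foxj1, and Foxj1 was at 14.8 ± 2.66 CPM in controls and 10.6 ± 2.88 CPM after ethanol (SD, n = 3 each). The sums of the neuron markers (4014 to 4443 CPM in controls and 3862 to 5001 CPM after ethanol), astrocyte markers led by S100b and Aqp4 (6069 to 7540 and 6344 to 8621 CPM), microglia markers, Csf1r among them, (386 to 448 and 395 to 464 CPM) and vessel markers led by Flt1 and Cldn5 (252 to 300 and 263 to 287 CPM) overlapped between the groups. The oligodendrocyte markers, Mbp among them, varied most within a group among these 5 lists, from 3783 CPM in control replicate 2 to 8671 CPM in control replicate 1 and from 4611 CPM in ethanol replicate 1 to 10010 CPM in ethanol replicate 3. Control replicate 2, the library with the highest Jun and Fosl2 levels, thus had the lowest oligodendrocyte marker sum. It also had the highest choroid plexus marker sum, at 1179 CPM. In ethanol replicate 2, the next highest library for both genes, the choroid plexus sum was 16.3 CPM. The neuron marker Slc17a7, picked after seeing the values, was at 413, 770 and 554 CPM in control replicates 1, 2 and 3. In ethanol replicates 1, 2 and 3 it was at 668, 879 and 425 CPM. Orders differed among the neuron markers, and Gad1 was highest in control replicate 1 (464 CPM). The part of any of these markers in the Jun and Fosl2 values was not tested.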
